A study of Rattus norvegicus with 24 samples.

Results

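The B cell and plasma cell genes of the rat lung were examined in animals that inhaled hexanal, a straight-chain aldehyde found in indoor air. The set held 9 genes: Cd79a, Cd79b, Ms4a1, Pax5, Cd22, Cr2, Fcrla, Jchain and Mzb1. A gene was measured where the accession of an array probe mapped to its symbol. This was so for 6 of the 9 genes (Cd79b, Pax5, Cd22, Cr2, Fcrla and Mzb1), while no probe was matched to the other 3 (Cd79a, Ms4a1 and Jchain), which were not analysed here. All 6 measured genes passed the filter on dim probes, as did 21255 genes or unnamed probes of the whole array. Lung RNA came from 24 rats of the inbred strain Fischer-344. The labels give their age as 7 to 8 weeks, and the study's text gives 7 weeks at purchase, before the exposure. There were 6 rats (3 males and 3 females) in each of 4 groups, which breathed filtered clean air (control) or hexanal at 600, 1000 or 1500 ppm for 4 hours a day on 5 days a week. The labels give 5 weeks of exposure and the study's text a shorter time, and the labels use ppm in one place and mg/m3 in another, so the doses are given here as the sample labels state them. Each rat gave 1 one-colour Agilent array.

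B cells recognise antigen through a surface immunoglobulin whose signal is passed into the cell by the CD79 chains. Coreceptors raise or lower that signal, and the transcription factor Pax5 holds the cells to the B cell lineage. After activation some B cells become plasma cells, which enlarge their endoplasmic reticulum and secrete antibody. In the rodent lung B cells lie scattered in the tissue and gather in lymphoid aggregates along the bronchi, where complement receptor 2, the product of Cr2, is also carried by follicular dendritic cells.

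Promoter sequence was available for 5 of the 9 genes, among them 3 measured genes. The 250 bases before the RefSeq start are shown for Cr2 and Cd22, whose levels moved together from rat to rat, and for Fcrla, whose level did not follow theirs. The regions lie at chr13:109244507-109244756 (Cr2), chr1:95259731-95259980 (Cd22) and chr13:85702827-85703076 (Fcrla), all on the minus strand of build GRCr8. They are written 5′ to 3′ along the gene, and capitals mark GAGGAA, the core of sites bound by PU.1, and CAGGTG, an E-box, on either strand.
Cr2 promoter: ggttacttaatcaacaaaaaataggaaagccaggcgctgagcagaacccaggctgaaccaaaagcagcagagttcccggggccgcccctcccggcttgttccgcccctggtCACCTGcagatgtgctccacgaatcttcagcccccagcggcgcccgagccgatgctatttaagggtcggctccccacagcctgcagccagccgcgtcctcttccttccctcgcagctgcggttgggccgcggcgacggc
Cd22 promoter: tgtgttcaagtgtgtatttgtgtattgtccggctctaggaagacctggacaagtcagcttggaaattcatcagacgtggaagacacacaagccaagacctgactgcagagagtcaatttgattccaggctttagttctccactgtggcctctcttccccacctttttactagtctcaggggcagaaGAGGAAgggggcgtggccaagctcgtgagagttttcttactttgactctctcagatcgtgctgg
Fcrla promoter: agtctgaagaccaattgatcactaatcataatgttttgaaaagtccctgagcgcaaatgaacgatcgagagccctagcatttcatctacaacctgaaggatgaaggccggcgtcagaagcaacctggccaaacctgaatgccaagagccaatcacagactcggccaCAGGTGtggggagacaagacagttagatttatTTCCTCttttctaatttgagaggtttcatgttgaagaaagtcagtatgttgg
GAGGAA was found 64 bases before the start of Cd22 on the same strand and 52 bases before that of Fcrla on the opposite strand. CAGGTG was found 139 bases before the start of Cr2 on the opposite strand and 84 bases before that of Fcrla on the same strand. Of 27456 rat promoters of this length, 23.2% held GAGGAA and 15.7% held CAGGTG. The octamer ATGCAAAT, bound by Oct factors, was in 1.51% of promoters and in none of these 3 windows. These matches are descriptions of the sequence only.

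Levels are given as log2 of the processed signal minus the 75th percentile of the same array, so that 0 is the level of the probe at that percentile and a difference of 1 is a doubling. The 75th percentile itself lay between 1701 and 3133 signal units over the 24 arrays, and 70.7% to 81.7% of probes were well above background. Each of the 6 measured genes was well above background in every rat. A slide carried 4 arrays, 6 slides were used, and males and females were never on the same slide. No slide held control rats together with 1000 or 1500 ppm rats. Rats were kept 2 or fewer to a cage and exposed in a nose-only chamber, and which rats shared a cage is not given in the sources used here. The p-values measure the spread between rats of this one experiment.

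The genes differed in how much they varied between rats. Cr2 spanned a 9.41-fold range over the 24 rats (SD 0.83 on the log2 scale) and Cd79b a 4.98-fold range (SD 0.62). Cd22, the sialic acid-binding inhibitory coreceptor of B cells, spanned a 3.82-fold range. Fcrla, an intracellular Fc receptor-like protein of B cells, spanned a 3.43-fold range, and Mzb1, an endoplasmic reticulum chaperone of immunoglobulin assembly, a 3.26-fold range. Pax5 was the narrowest of the 6, with a 1.76-fold range and an SD of 0.20. The median SD of the 6 genes was 0.45, against 0.24 over all genes tested. These figures pool males and females. Within a sex the SD of Cr2 was 0.55 in males and 0.78 in females, and that of Cd79b 0.48 and 0.40. Cr2 and Cd22 reached the lowest levels of the 6 genes (-5.86 and -5.48), and how much background noise added to their spread was not tested.

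None of the 6 measured genes passed the test at any dose. The test asked for a change of at least 1.5-fold and an unadjusted p under 0.05 in limma, the fold and p limits of the study's methods. Over all genes 0.616% passed at 600 ppm, 1.64% at 1000 ppm and 1.22% at 1500 ppm. Without the fold limit, 1 of the 6 genes had an unadjusted p under 0.05 at 1000 ppm (Mzb1) and 0 had one at 600 or 1500 ppm, against 8.99% of all genes at 1000 ppm, 4.33% at 600 ppm and 6.97% at 1500 ppm. In the order of rising dose, the 6 genes had a median log2 fold change of -0.16, 0.01 and -0.01, and all genes one of 0.00, 0.00 and 0.01. In these bulk samples a change in the number of B cells and a change in RNA per cell cannot be told apart.

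**Figure D1:**
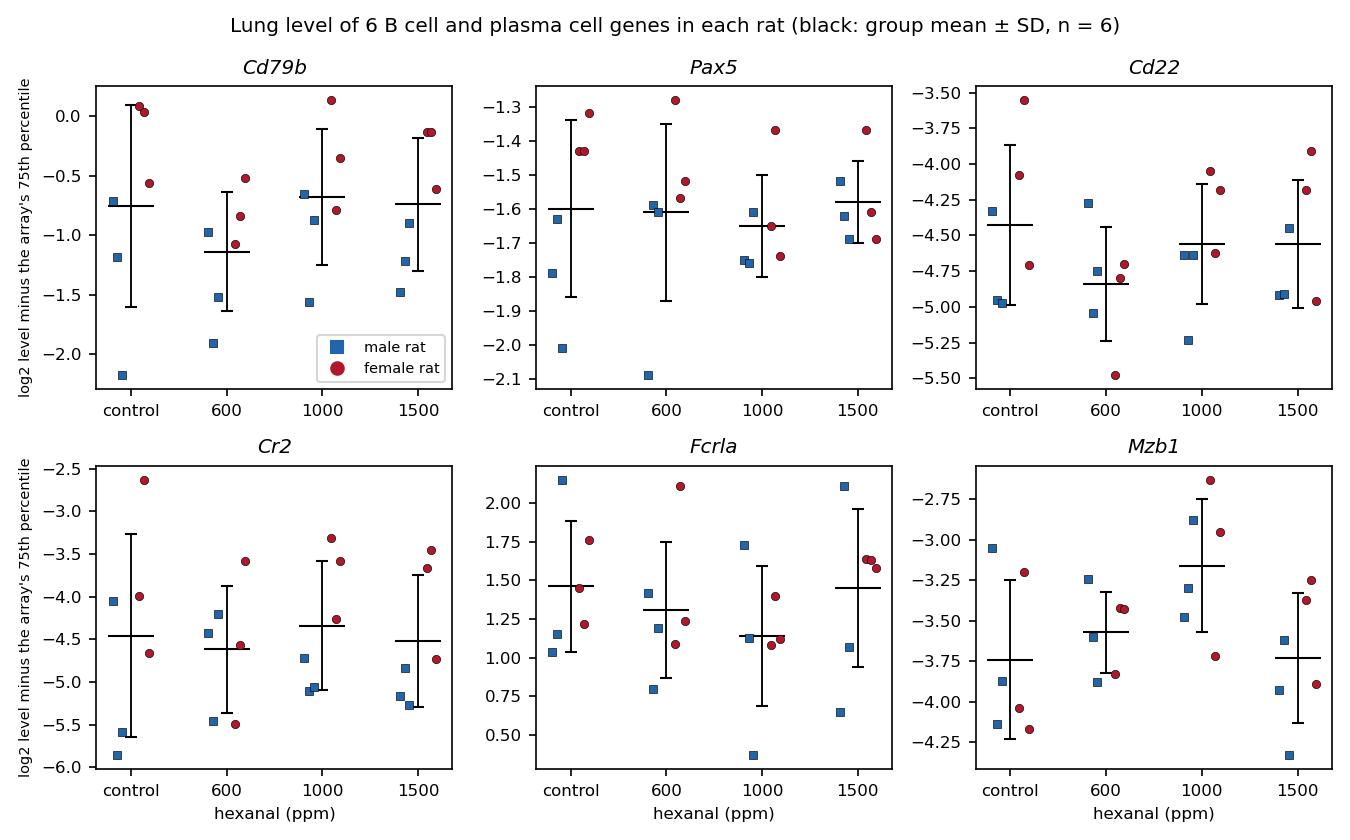
Log2 level (array's 75th percentile at 0) of each measured gene in each of the 24 rats by hexanal dose, with males as squares, females as circles, and the group mean ± SD (n = 6) in black. The 4 dose groups overlap for every gene, and Mzb1 at 1000 ppm has 3 rats above all 6 controls.

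Cd79b, the signalling chain of the B cell antigen receptor, had a lowest, median and highest level of -2.18, -0.64 and 0.09 in controls. The 600 ppm rats had -1.91, -1.02 and -0.52, those at 1000 ppm -1.56, -0.72 and 0.14, and those at 1500 ppm -1.48, -0.75 and -0.13. The groups overlapped, and the controls had the widest range. The log2 fold change was -0.39 (SE 0.35, 95% interval -1.11 to 0.33) at 600 ppm. At the higher doses it was 0.07 and 0.00 (SE 0.35). The 600 ppm difference moved with single rats. It grew to -0.67, which passed the test (limma adjusted p = 0.799), without control rat 3, the lowest of all 24. It shrank to -0.22 without control rat 21 and to -0.23 without control rat 22 or 600 ppm rat 7. Rats 3 and 7 were males and rats 21 and 22 females, so each of these fits compared groups with unequal shares of the sexes. The fits held no term for sex, and the level of Cd79b was higher in females by 0.87, as given below. How much of each shift came from sex rather than from the single rat was not tested.

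Cr2, the complement receptor that lowers the threshold of B cell activation, had levels from -5.86 to -2.63 (median -4.36) in controls. It ran from -5.49 to -3.58 (median -4.50) at 600 ppm, from -5.11 to -3.31 (median -4.49) at 1000 ppm and from -5.27 to -3.46 (median -4.78) at 1500 ppm. Every exposed rat lay within the range of the controls. The log2 fold changes were -0.16, 0.13 and -0.06 with an SE of 0.49, so that the 95% interval at 1000 ppm ran from -0.88 to 1.13. That interval includes a doubling. The dose model held no term for sex, so the spread behind the interval includes the sex difference given below. With sex as a covariate the 1000 ppm value was again 0.13 (limma adjusted p = 0.925).

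Cd22 had levels from -4.97 to -3.55 (median -4.52) in controls, from -5.48 to -4.27 (median -4.78) at 600 ppm, from -5.23 to -4.05 (median -4.63) at 1000 ppm and from -4.96 to -3.91 (median -4.68) at 1500 ppm. At 600 ppm 2 rats lay below all controls, and the log2 fold change was -0.41 (SE 0.25, limma adjusted p = 0.997, exact permutation p = 0.182). It was -0.13 (SE 0.25) at both higher doses.

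Pax5 had levels from -2.01 to -1.32 (median -1.53) in controls, from -2.09 to -1.28 (median -1.58) at 600 ppm, from -1.76 to -1.37 (median -1.69) at 1000 ppm and from -1.69 to -1.37 (median -1.61) at 1500 ppm. Its intervals were the tightest of the set. The log2 fold change was -0.01 (95% interval -0.26 to 0.24), -0.04 (-0.29 to 0.20) and 0.02 (-0.23 to 0.27) at the 3 doses, which leaves out a 1.5-fold change (0.585 on the log2 scale) in either direction. This holds for the Pax5 level alone, which did not follow that of Cd79b from rat to rat (r = 0.02 in males and -0.26 in females).

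Fcrla had levels from 1.04 to 2.15 (median 1.33) in controls, from 0.80 to 2.11 (median 1.21) at 600 ppm, from 0.37 to 1.73 (median 1.12) at 1000 ppm and from 0.65 to 2.11 (median 1.60) at 1500 ppm. The log2 fold changes were -0.15, -0.32 and -0.02 (SE 0.25). Fcrla was the gene with 2 probes. Their levels followed each other closely (Pearson r = 0.99 over 24 rats), and the probe not used gave -0.16, -0.31 and 0.01.

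Mzb1 showed the largest difference of the set. Its lowest, median and highest levels were -4.17, -3.96 and -3.05 in controls and -3.88, -3.52 and -3.24 in the 600 ppm rats. The 1000 ppm rats had -3.72, -3.13 and -2.63, and the 1500 ppm rats -4.33, -3.75 and -3.25. At 1000 ppm 3 of 6 rats lay above all controls. At 1500 ppm no rat did. The log2 fold change at 1000 ppm was 0.58 (SE 0.22, 95% interval 0.13 to 1.04), just under the limit of 0.585, with a limma p of 0.015 and an adjusted p of 0.515. The difference was 0.46 in males and 0.70 in females. The two-sided exact permutation test of 6 rats against 6 gave p = 0.0563, the lowest of the 18 exact tests of the 6 genes at 3 doses, where 0.00216 is the smallest p this design allows. At 600 and 1500 ppm the log2 fold change was 0.18 and 0.01 (SE 0.22).

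The Mzb1 difference at 1000 ppm lay close to the limit under many settings. It passed the test at 0.69 in the series table without scaling between arrays, at 0.60 with slide as a random block and at 0.64 with array weights. It did not pass with slide as a fixed block (0.51, limma adjusted p = 0.999) or by the methods' t-test. It also passed without control rat 1 (0.72), control rat 22 (0.69), 1000 ppm rat 11 (0.65), 1000 ppm rat 12 (0.61) or 1000 ppm rat 32 (0.70). With normexp background correction it was 0.17 (limma adjusted p = 0.72). No control rat shared a slide with a 1000 ppm rat. Within the 4 slides that held 1000 ppm rats, Mzb1 was higher in these rats than in those of the neighbouring dose in 4 of 4, by 0.35 and 0.25 over 600 ppm (2 rats against 2) and by 1.08 and 0.55 over 1500 ppm (1 rat against 3). Heart muscle genes were also high in some lungs of this group and of the other groups. The mean level of 6 heart markers ran from -2.86 to 1.98 in controls and from -2.45 to 2.54 at 600 ppm. It ran from -0.11 to 3.49 at 1000 ppm and from -2.74 to 3.47 at 1500 ppm. At 1000 ppm 3 of the 6 (Actc1, Tnni3 and Tnnt2) passed the test, and at 600 and 1500 ppm 0 did. Their part in the Mzb1 difference was not tested.

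**Figure D2:**
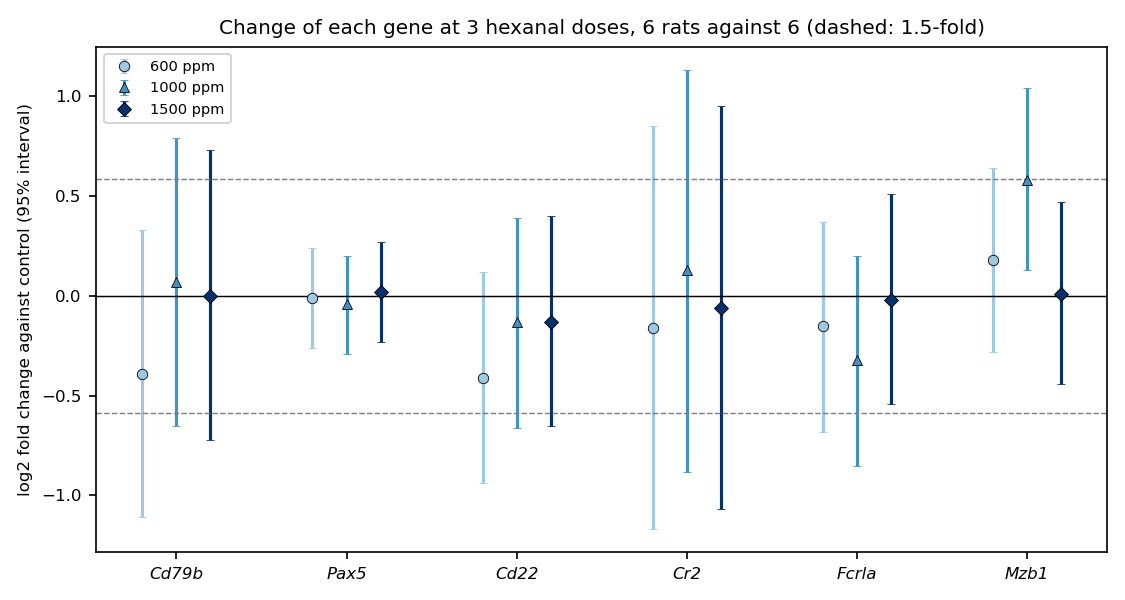
Log2 fold change against control (y axis) of each measured gene at 600, 1000 and 1500 ppm with its 95% interval from limma (6 rats against 6), and dashed lines at 1.5-fold. Of the 18 intervals, that of Mzb1 at 1000 ppm (0.13 to 1.04) is the one that does not cross 0.

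No slope on dose passed. The slope per 1000 ppm over all 24 rats lay between -0.05 (Fcrla, SE 0.16) and 0.09 (Mzb1, SE 0.16), and 0 of the 6 genes had an unadjusted p under 0.05 in limma, against 8.49% of all genes. The smallest of the 6 slope p-values was 0.574 (adjusted p = 0.899).

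The related genes tested were 8 plasma cell genes, 10 transcription factors, 11 receptor signalling genes, 5 inhibitory and Fc receptors and 8 survival and homing genes. Of all these 1 passed at a dose, and this was at 1000 ppm, where 1.64% of all genes passed. Of the plasma cell programme, 8 of 10 genes could be tested. Tnfrsf17, the plasma cell survival receptor BCMA, rose at 1000 ppm by 0.82 on the log2 scale (SE 0.25, limma adjusted p = 0.515). It no longer passed with normexp background correction (0.24) or with slide as a fixed block (0.67), and still passed when any 1 rat was left out (0.66 to 1.00). It was 0.45 at 600 ppm and 0.29 at 1500 ppm, the highest value of its list at both doses but short of the test. The lowest values of this list were -0.40 for Cd38, an ectoenzyme of activated lymphocytes, at 600 ppm, -0.26 for Pigr, the epithelial carrier of polymeric antibody, at 1000 ppm and -0.05 for Cd38 at 1500 ppm. The median of the 8 genes was 0.10, 0.08 and 0.07 at the 3 doses. None of the 11 immunoglobulin genes looked for had a matched probe.

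Of 10 B cell transcription factors, all tested, 0 passed at any dose. Their extremes were 0.01 (Spib) and -0.29 (Irf8) at 600 ppm, 0.32 (Spib) and -0.23 (Tcf3) at 1000 ppm, and 0.13 (Spib) and -0.33 (Pou2f2) at 1500 ppm. Of 11 tested genes of B cell receptor signalling 0 passed. At 600 ppm the highest value was 0.08 for Lyn, a kinase of the receptor. Plcg2 was highest (0.24 and 0.09) and Bank1 lowest (-0.55 and -0.26) at 1000 and 1500 ppm. The median of this list was -0.21 at 600 ppm, with 9 of 11 genes lower.

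Among inhibitory and Fc receptors, 5 were tested and 0 passed. Cd72, an inhibitory B cell coreceptor, had the lowest value at each dose (-0.47, -0.28 and -0.35), and the highest values were 0.07 (Ptpn6), 0.19 (Fcmr) and 0.28 (Fcer2). Among survival and homing genes, 8 were tested and 0 passed. Cxcl13, the chemokine that draws B cells into follicles, had the highest value at 600 and 1000 ppm (0.23 and 0.58, SE 0.68), and Ccr7 had the highest at 1500 ppm (0.01). Cd37 had the lowest at each dose (-0.32, -0.24 and -0.22).

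Markers of other cells did not pass the test at any dose, apart from the heart muscle genes above. Of 12 T cell markers 11 were lower at 600 ppm (median -0.24, from 0.01 for Zap70 to -0.50 for Cd3e), 7 higher at 1000 ppm (from 0.40 for Cd2 to -0.16 for Lck) and 10 higher at 1500 ppm (median 0.17, from 0.25 for Cd2 to -0.15 for Cd4). Of 6 NK cell markers 6 were lower at 600 ppm (from -0.03 for Nkg7 to -0.38 for Ncr1), with extremes of 0.01 (Prf1) and -0.29 (Ncr1) at 1000 ppm and of 0.22 (Klrd1) and -0.25 (Gzmb) at 1500 ppm. Macrophage markers had medians of 0.19, -0.06 and -0.14. The follicular dendritic cell list, of interest because these cells also carry Cr2, had medians of -0.01, -0.04 and -0.15. Its gene Fdcsp did not pass the filter on dim probes, so these medians rest on Clu, Mfge8, Vcam1 and Pdpn. Whether those genes stand for follicular dendritic cells in whole lung was not tested. Endothelial markers had medians of 0.04, -0.16 and -0.15, and lung epithelial markers, which include the surfactant gene Sftpc, of -0.01, 0.04 and -0.10.

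The dose effect was then compared between males and females. For 0 of the 6 genes did the dose effect differ between the sexes at an unadjusted p under 0.05 in limma, against 4.99%, 9.41% and 20.2% of all genes at 600, 1000 and 1500 ppm. The nearest was Cd22 at 600 ppm, whose log2 fold change was 0.06 in males and -0.88 in females (difference -0.94, SE 0.46, limma adjusted p = 0.953). The next was Pax5 at 1500 ppm, with 0.20 in males and -0.16 in females (difference -0.36, SE 0.19, limma adjusted p = 0.31). Both lay just beyond the limit on the unadjusted p and crossed it with single rats left out: Cd22 without control rat 1 (-1.15) or 23 (-1.24), 600 ppm rat 7 (-1.12) or 28 (-1.09) or 1500 ppm rat 37 (-0.94) or 38 (-0.94), and Pax5 without control rat 2 (-0.45), 600 ppm rat 6 (-0.36) or 1500 ppm rat 36 (-0.46). Cr2 at 600 ppm, at -1.26 with all rats (SE 0.79, limma adjusted p = 0.953), crossed it without control rat 1 (-1.82), control rat 23 (-1.71) or 600 ppm rat 28 (-1.74).

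Levels were also compared between the sexes. This comparison, 12 females against 12 males with the dose group in the model, was added after the data had been seen. All 6 genes were higher in females, and 2 of the 6, Cd79b and Cr2, passed the 1.5-fold and p limits, against 3.12% of all genes that passed in that direction. At an adjusted p under 0.05 in limma 3 of the 6 differed, Pax5 being the third, against 24.9% of all genes. The median of the 6 genes was 0.27, against 0.03 over all genes.

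Cd79b ran from -2.18 to -0.65 (median -1.20) in males and from -1.07 to 0.14 (median -0.43) in females. The ranges overlapped, but 9 of 12 females lay above all 12 males. Female minus male was 0.87 (SE 0.17, limma adjusted p = 0.000849), or 1.83-fold. It was 1.21 in controls, 0.66 at 600 ppm, 0.70 at 1000 ppm and 0.91 at 1500 ppm. Permuting sex within the dose groups gave an exact two-sided p of 8.75e-05.

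Cr2 ran from -5.86 to -4.05 (median -5.09) in males and from -5.49 to -2.63 (median -3.82) in females, with 7 of 12 females above all males. Female minus male was 0.99 (SE 0.28, limma adjusted p = 0.0136), or 1.98-fold, with an exact permutation p of 0.00401. The difference was 1.41 in controls, 1.25 at 1000 ppm and 1.15 at 1500 ppm, and 0.15 at 600 ppm. At 600 ppm the female mean was -4.55, with rat 26 at -5.49, against -3.76 in controls, -3.72 at 1000 ppm and -3.95 at 1500 ppm. The male mean at 600 ppm was -4.70, against -5.17, -4.96 and -5.09 in the same order.

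Pax5 was higher in females by 0.22 (SE 0.07, limma adjusted p = 0.0248, exact permutation p = 0.00351), or 1.17-fold, which is below the fold limit. Its difference was 0.42 in controls, 0.31 at 600 ppm, 0.12 at 1000 ppm and 0.05 at 1500 ppm. Female minus male was 0.32 (SE 0.17, limma adjusted p = 0.167) for Cd22, 0.21 (SE 0.18) for Fcrla and 0.12 (SE 0.16) for Mzb1, none of which passed.

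Sex and slide were nested, with 3 male and 3 female slides. With slide as a random block (consensus correlation 0.129), the adjusted p in limma was 0.00939 for Cd79b, 0.0652 for Cr2 and 0.0703 for Pax5, so that 1 of the 6 genes was under 0.05, against 13.3% of all genes. The slide means of Cd79b ran from -1.41 to -1.12 in males and from -0.50 to -0.30 in females, and those of Cr2 from -5.09 to -4.87 and from -4.19 to -3.86. An exact permutation test of 3 slide means against 3 gave p = 0.1 for Cd79b, Cr2, Pax5 and Cd22, the smallest p it allows. Within a slide, sex could not be compared.

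**Figure D3:**
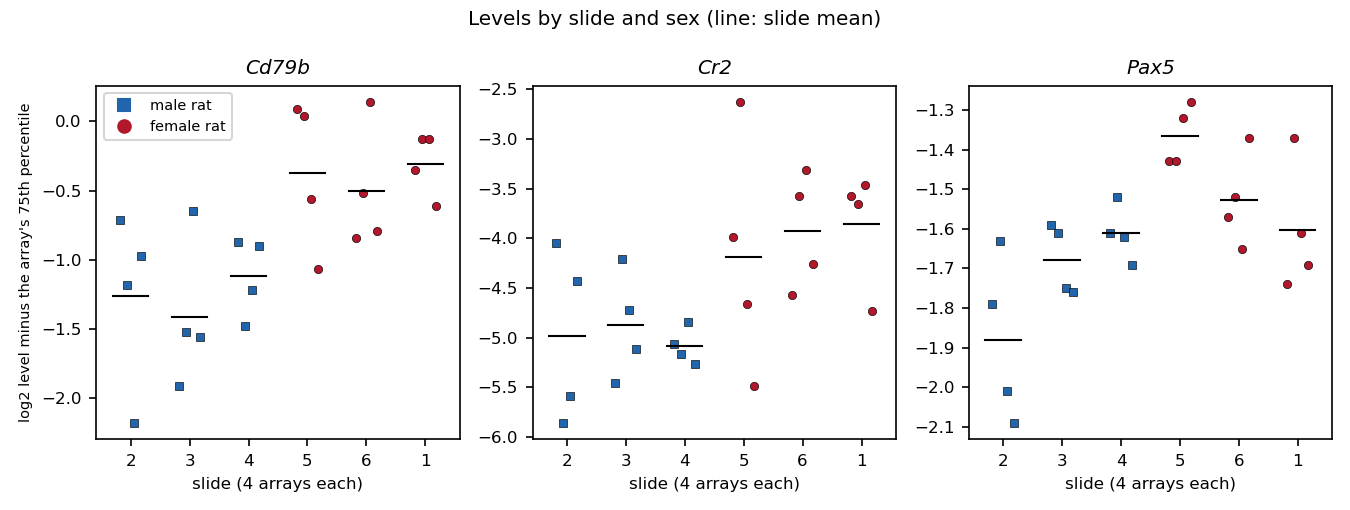
Log2 level of Cd79b, Cr2 and Pax5 in the 4 rats of each of the 6 slides, male slides (2, 3, 4) as squares and female slides (5, 6, 1) as circles, with a line at each slide mean. The 3 female slide means lie above the 3 male ones for each gene, by a wide gap for Cd79b (-0.50 against -1.12) and hardly for Pax5 (-1.60 against -1.61).

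Some other lymphocyte genes shared this direction. Fcer2, the low-affinity IgE receptor of B cells, was higher in females by 0.89 (SE 0.23, limma adjusted p = 0.00891), and Ikzf3, a lymphocyte transcription factor, by 0.68 (SE 0.19, adjusted p = 0.0139). Each was the 1 gene of its list that passed, out of 5 and 10 tested. Other genes of these lists went the other way. Of the inhibitory and Fc receptors 3 were higher and 2 lower in females. Fcgr2b was the lowest (-0.53, limma adjusted p = 4.21e-05), short of the fold limit. Of the transcription factors 7 were higher and 3 lower. The counts were 8 and 3 for receptor signalling and 5 and 3 for survival and homing. In the series table without scaling Fcer2 (0.57) and Ikzf3 (0.52) fell under the fold limit, and Ikzf3 did so too with normexp background correction (0.56) and quantile normalization (0.56). Of the plasma cell programme 0 of 8 passed, with values from -0.16 (Cd38) to 0.35 (Prdm1).

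Of 12 T cell markers 11 were higher in females and 6 passed, among them Cd3d, Cd3e, Cd247, Cd8a and Cd8b. Cd3e, a chain of the T cell receptor complex, was higher by 0.73 (SE 0.09, limma adjusted p = 2.57e-05), and by 0.56 in the unscaled series table. The mean level of the T cell list ran from -2.67 to -2.09 in males and from -2.35 to -1.47 in females. All 6 NK cell markers were higher in females (median 0.34) and 0 passed. Of 6 macrophage markers 4 were lower and 2 higher (median -0.23, from -0.58 for Mrc1 to 0.60 for Itgam), and 0 passed. Of 5 endothelial markers 1, Cldn5, passed in the opposite direction (-0.63, SE 0.10). The follicular dendritic cell list was lower in females for 4 of 4 tested genes (Clu, Mfge8, Vcam1 and Pdpn, median -0.14), and 0 passed. Its gene Fdcsp did not pass the filter on dim probes, and the mean levels of the 4 ran from 1.51 (Vcam1) to 5.54 (Pdpn). Whether these 4 genes stand for follicular dendritic cells in whole lung was not tested. Of 7 lung epithelial markers 3 were higher and 4 lower (median -0.07), and 0 passed. Without the fold limit more genes differed at an adjusted p under 0.05 in limma, as did 24.9% of all genes. They were 9 of 12 T cell, 4 of 6 NK cell, 3 of 6 macrophage and 3 of 7 lung epithelial markers. For the endothelial and follicular dendritic cell lists the counts were 2 of 5 and 1 of 4. The part of these cell types in the difference of Cd79b and Cr2 was not tested.

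**Figure D4:**
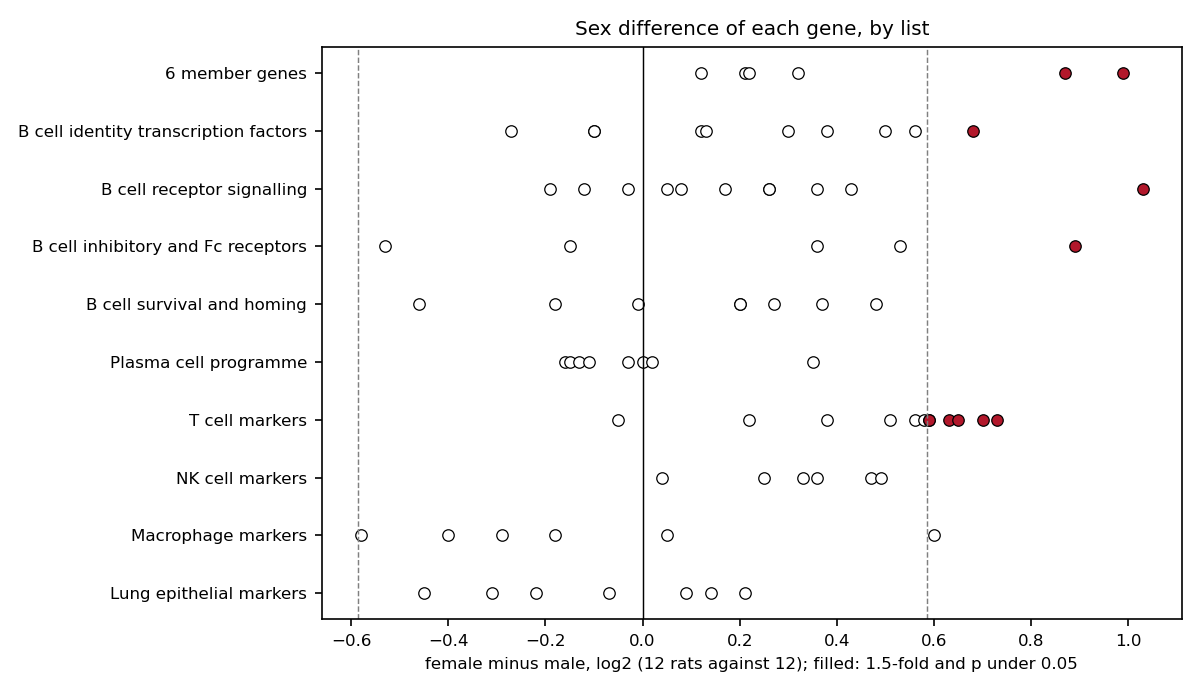
Female minus male difference on the log2 scale (x axis, 12 rats against 12) of every tested gene, 1 circle each, by list, filled where the change was at least 1.5-fold with an unadjusted p under 0.05 and with dashed lines at 1.5-fold. Filled circles stand at 0.87 and 0.99 among the 6 member genes and at 6 of 12 T cell markers, all on the female side.

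From rat to rat, 3 of the 6 genes varied together. Because the sexes lay apart, correlations were taken within the 12 males, within the 12 females, and over all 24 rats after centring each value on its slide, 45 in all for the 15 pairs, with permutation p-values adjusted by the Benjamini-Hochberg method over the 45. Cd79b and Cd22 rose and fell together in both sexes, with Pearson r = 0.73 in males (Spearman rho 0.79, permutation p = 0.0081, adjusted p = 0.045) and r = 0.90 in females (rho 0.89, permutation p = 7e-05, adjusted p = 0.0012). Centred on slides the pair had r = 0.78 (rho 0.81, permutation p = 5e-05). Without the 2 rats farthest from the median of Cd79b, r was 0.75 in males, 0.87 in females and 0.82 on slides.

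Cd22 and Cr2 had r = 0.92 in females (rho 0.89, permutation p = 0.00013, adjusted p = 0.0015) and 0.88 on slides (rho 0.83, permutation p = 8e-05, adjusted p = 0.0012). In males r was 0.61 (rho 0.64, permutation p = 0.036, adjusted p = 0.14) and was 0.31 without the 2 rats farthest from the median of Cd22. Leaving them out also narrows the range of Cd22, so this cannot tell whether the relation in males rests on those rats. Cd79b and Cr2 had r = 0.82 in females (rho 0.80, permutation p = 0.00099, adjusted p = 0.0089) and 0.69 on slides (rho 0.69, permutation p = 0.0027, adjusted p = 0.02), and 0.47 in males (rho 0.48, permutation p = 0.12). Female control rat 22 was highest for Cr2 (-2.63) and Cd22 (-3.55), and female 600 ppm rat 26 was lowest for Cd22 (-5.48) and the lowest female for Cr2 (-5.49).

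Mzb1 passed with Cr2 alone, and only after centring on slides. With Cr2 it had r = 0.59 on slides (rho 0.58, permutation p = 0.0053, adjusted p = 0.034), 0.68 in females (rho 0.78, adjusted permutation p = 0.075) and 0.50 in males (rho 0.55, adjusted permutation p = 0.27). With Cd79b and Cd22 it had r = 0.46 and 0.48 on slides (adjusted permutation p = 0.14 and 0.12), and no correlation with either gene passed within a sex. Pax5 and Fcrla had no correlation that passed. With Cd79b, Pax5 had r = 0.02 in males and -0.26 in females, and Fcrla -0.18 and -0.22. Of the 27 correlations that involve either gene 0 had an adjusted permutation p under 0.05.

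**Figure D5:**
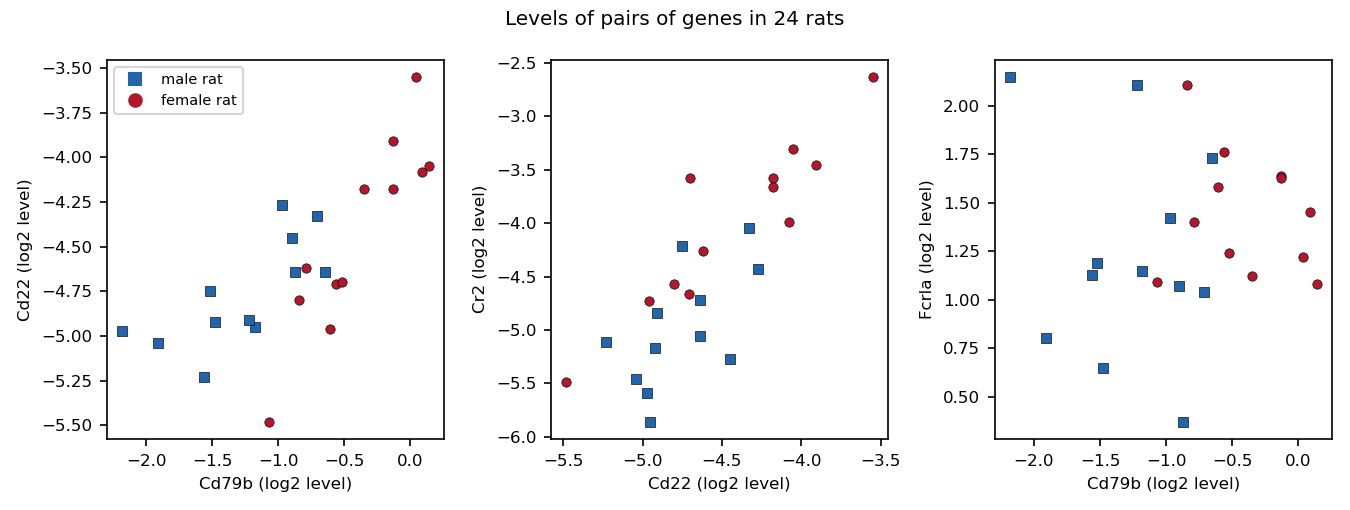
Log2 levels of Cd22 against Cd79b, Cr2 against Cd22 and Fcrla against Cd79b in the 24 rats, males as squares and females as circles. The first pair follows a line in both sexes (r = 0.73 and 0.90), and the third shows no line (r = -0.18 and -0.22).

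The mean of the 6 genes, each scaled to the same spread and centred on its dose group, was set against 12406 genes with a symbol over the 24 rats. The 10 genes most like it were Gpr183, Traf3ip3, Prrg4 and Birc3 (r = 0.92), Gpr37, Fcmr, Hap1 and Mcm3 (r = 0.91), and Elovl6 and Slc38a1 (r = 0.90). With sex centred as well, these 10 had r between 0.81 and 0.93. Centred on dose group only, the 99th percentile of all genes was 0.82 and the median 0.00. These were not computed with sex centred. The points share arrays, slides and sexes, so that r is given as a description only. Gpr183 guides B cells within follicles, Fcmr is the Fc receptor for IgM and Birc3 an inhibitor of apoptosis. The r of each of the 6 genes with this mean is raised by its own share in it, and is not comparable with that of the other genes. It was 0.93 for Cr2, 0.89 for Cd79b, 0.83 for Cd22, 0.61 for Mzb1, 0.32 for Pax5 and 0.23 for Fcrla.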

How the data were processed

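Lung RNA of 24 rats was measured on Agilent rat 4x44K arrays. The deposited intensities are Feature Extraction (version 11.5.1.1) processed signals, background-subtracted by the authors' scanner software, with no scaling from array to array. The series table deposited beside them holds equal intensities, within 0.1% for at least 99.69% of probes of each array. The normalization of these mRNA values is not given in the sources used here.

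Spots were averaged into 30367 probes, of which 18355 (60.4%) matched a symbol by RefSeq accession. Log2 signal minus each array's 75th percentile was analysed in R 4.3.3 with limma 3.58.1 (lmFit and eBayes over all 4 groups). A probe had to be well above background on at least 5 of the 6 arrays of a group, and the brightest probe stood for its gene. A gene passed at 1.5-fold and an unadjusted p under 0.05, and adjusted p-values are Benjamini-Hochberg over all 21255 genes or probes. The slope was fitted on dose in ppm, and sex differences of the dose effect as interaction terms. The dose and slope models held no term for sex, and the exact tests at a dose pooled the sexes. Sex differences therefore add to their spread, and the number of arrays limits the precision. The code was tested on simulated data.

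Members and gene lists were chosen with earlier results of these data known. The rule named all members, the highest and lowest gene of each list at each dose and the 10 most similar genes. Lists of non-lymphoid cells are given by their medians, and genes named in the sex comparison were chosen after their values were seen. The sex comparison was added after the data were seen. Promoters are from RefSeq (GRCr8). Alternatives were background correction, scaling, filters, tests, blocks, weights and leaving out each rat. Values of some listed genes are not reported here.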

Additional observations from a re-analysis of the deposited data

Results flagged for a closer look

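In 24 sets of 6 rats (6 genes in 4 dose groups), no rat stood apart from the other 5 beyond Dixon's 95% critical value. Each set pooled males and females, so that a sex difference widens its range and can hide a rat far from its own sex. The dose effect of no member differed between the sexes at an unadjusted p under 0.05 in limma.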

How the results depend on the processing

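No member gene passed at 600 or 1500 ppm under any of the 14 settings other than leaving out a rat. At 1000 ppm 1 gene, Mzb1, passed with the series table without scaling, with slide as a random block and with array weights. Leaving out single rats gave 0 to 1 genes at 600 ppm, 0 to 1 at 1000 ppm and 0 at 1500 ppm. Each such fit left the sexes unequal in the group of that rat, with no term for sex in the dose model. The slope passed for 0 genes throughout, and the sex difference for 2 throughout. The dose effect differed between the sexes at 600 ppm for 2 genes (Cd22 and Cr2) with normexp background correction and with slide as a fixed block, for 1 (Cd22) with slide as a random block, and for 0 to 2 without single rats. At 1500 ppm it did so for 1 gene, Pax5, with the series table (-0.52) and with slide as a fixed block (0.78, the opposite direction), and for 0 to 1 without single rats. The cause of these shifts was not tested. Of 252 single values at a dose 249 kept their side of the limits and 3 came to pass, and 24 uncalled values changed sign. Of 60 single sex differences 60 kept theirs. The methods' t-test gave 87, 299 and 188 genes at the 3 doses over the whole table, and 0, 2 and 1 after Benjamini-Hochberg adjustment.

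Over all genes, the 131 calls at 600 ppm became 40 with normexp, 587 with no filter, 50 with a filter on all 24 arrays, 227 with slide as a fixed block and 323 with array weights. The 348 at 1000 ppm became 569 with the series table and 562 with no filter, 225 with the stricter filter and 3 at an adjusted p. The 260 at 1500 ppm became 95 with normexp, 479 with no filter, 151 with the stricter filter, 405 with slide fixed, 140 with slide random and 1 at an adjusted p. The 836 sex differences became 500 with normexp, 1402 with no filter and 448 with the stricter filter. The 1805 slopes became 928 with the series table, 559 with slide fixed and 765 with slide random. The 1060 sex differences of the dose effect at 600 ppm became 4560 with normexp, 661 with the series table and 2324 with slide fixed, and the 2001 at 1000 ppm became 1015 with the series table and 1187 with slide random. No paired analysis was possible because the rat numbers are not shared between groups. With 6 rats a group and no term for sex in the dose model, the 95% intervals of Cr2 at each dose are wider than a 1.5-fold change in both directions.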

Other observations

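Some genes outside the B cell lineage, of lymphoid tissue and of others, also followed the mean of the 6 genes once sex and dose group were centred. Over the 24 rats r was 0.84 for Cxcl13 and for Ccl19, chemokines of lymphoid follicles and T cell zones. Among T cell markers it was 0.64 for Cd247, 0.56 for Cd3e, 0.38 for Cd5 and -0.07 for Cd8b. Heart muscle markers had r of 0.70 (Tnni3), 0.67 (Myh6), 0.62 (Myl7), 0.60 (Tnnt2), 0.59 (Actc1) and 0.18 (Ryr2). Foxj1, the transcription factor of ciliated airway cells, had r = 0.85, and its level was 0.45 higher on the log2 scale at 1000 ppm than in controls (limma p = 0.037, adjusted p = 0.532). Other listed genes went the opposite way. With sex and dose group centred, r was -0.65 for Ager, -0.63 for Mrc1, -0.62 for Kdr, -0.61 for Pdpn and Tek and -0.58 for Aqp5. All these values are descriptions over shared arrays, with no test, and the spread of this r over all genes was not computed.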
